A study of Mus musculus with 9 samples.

Results

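The signal of macrophage and leukocyte marker genes was followed array by array in cultures of mouse embryonic fibroblasts (MEFs), as a measure of leukocyte content. The set has 37 genes among 19938 genes tested, chosen by name as genes that blood-derived cells, and macrophages above all, are known to express. Each was read from the probe set annotated to its symbol with the highest mean over all arrays (Adgre1 is listed under its older name Emr1 in the set), and all 37 were measured, each by 1 probe set with a single symbol.

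The fibroblasts differed at Rb1, which encodes the tumour suppressor that holds E2F transcription factors in check. WT cultures were Rb +/+, ΔG cultures were Rb ∆G/∆G, carrying the allele altered where the protein makes its general contact with E2Fs, and null cultures were Rb -/-, with 3 arrays each and 9 in all. In every group 3000000 cells were plated in a 15 cm dish and after 24 h received medium with 0.1% fetal bovine serum, which starves fibroblasts out of the cell cycle. Total RNA was read on Affymetrix whole-transcript arrays, and each value below is a log2 RMA signal, so a difference of 1 is a 2-fold difference in signal. The sources used here do not say what the null allele lacks, which strain the embryos came from or how old they were. The series text calls the cultures paired by litter, but the labels do not say which arrays share a litter or whether replicates are separate embryos. P-values therefore set a difference only against the spread of these samples. That spread may be technical in part or, for ΔG and null, in full.

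Macrophages are tissue phagocytes that arise in the embryo and again from blood monocytes. The receptor encoded by Csf1r passes them their survival signal, and the transcription factor PU.1, encoded by Spi1, switches on much of their gene programme. MEFs are grown from minced embryos rather than from sorted cells, and such primary cultures can hold other embryonic cells beside fibroblasts. In RNA from whole cultures, fewer macrophages, less marker RNA per macrophage and less marker RNA from other cells cannot be told apart.

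PU.1 binds DNA with a GAGGAA core, and the sequences that lie just before the starts of member genes are shown because the members moved together from array to array. RefSeq promoters on assembly GRCm38.p6 (250 bases before to 50 after a start) were at hand for 26 of the 37 members, with 32 starts. GAGGAA stood on either strand in 20 of these 32 promoters (62.5%) and in 28.3% of all 32851 promoters of that length. The C/EBP-type pattern TTNNGNAA was in 16 of 32 (50%, against 40.7% of all) and the TATA box TATAAA in 4 of 32 (12.5%, against 13.6%), both strands searched. Below are the last 150 bases before the start of the 4 members with the widest range of signal that hold GAGGAA in that stretch, followed by Lyz2, the member with the widest range of all, whose stretch does not hold it. Capitals mark GAGGAA, or TTCCTC where it lies on the opposite strand.
C1qb, chr4:136886201-136886350, minus strand: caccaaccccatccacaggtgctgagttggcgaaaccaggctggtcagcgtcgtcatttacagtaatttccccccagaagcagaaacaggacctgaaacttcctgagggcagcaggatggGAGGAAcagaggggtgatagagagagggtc
Cd53, chr3:106790150-106790299, minus strand: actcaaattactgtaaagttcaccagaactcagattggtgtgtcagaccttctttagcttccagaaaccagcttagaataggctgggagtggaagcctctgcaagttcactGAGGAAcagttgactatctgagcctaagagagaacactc
Laptm5, chr4:130913166-130913315, plus strand: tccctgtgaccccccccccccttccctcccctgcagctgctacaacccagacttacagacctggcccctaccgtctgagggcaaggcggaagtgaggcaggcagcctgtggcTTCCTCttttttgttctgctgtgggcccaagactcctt
Mrc1, chr2:14229264-14229413, plus strand: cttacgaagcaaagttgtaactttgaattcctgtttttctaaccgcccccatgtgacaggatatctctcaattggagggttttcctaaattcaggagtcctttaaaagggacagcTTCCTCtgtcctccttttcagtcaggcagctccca
Lyz2, chr10:117282273-117282422, minus strand: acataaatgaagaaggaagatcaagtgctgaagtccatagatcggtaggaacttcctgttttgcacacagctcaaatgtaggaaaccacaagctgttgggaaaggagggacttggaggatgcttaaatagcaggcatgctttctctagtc
The motif began 30, 39, 38 and 35 bases before the start in C1qb, Cd53, Laptm5 and Mrc1. A match is a run of letters and not a measured binding site. Fcgr3, Trem2, Itgam, Aif1, Fcgr1 and Clec7a also held it within 150 bases of a start. Of these, Itgam, Aif1, Fcgr1 and Clec7a spanned less than 0.5 log2 units over the arrays. Mpeg1, Fcer1g, Ms4a7, Cybb, Lcp1, Cd68, Ctss and C1qc had wider ranges than Mrc1 and, like Lyz2, did not hold it in that stretch. In the longer window counted above, Ms4a7 (at 1 of its 2 starts), Cybb, Cd68, Ctss and C1qc did hold it. Mpeg1, Fcer1g, Lcp1 and Lyz2 did not hold it there either. Csf1r, Itgb2, Cd52, Msr1, C1qa, Cd14, Ms4a6d, Tyrobp, Adgre1, Spi1 and Ncf4 had no entry.

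Array medians over all genes lay between 6.64 and 6.69. The fibroblast label was checked with 14 fibroblast markers such as collagen genes, whose mean lay between 10.95 and 11.73 on all arrays. Rb1 signal was 8.93 to 9.17 in WT, 9.53 to 9.76 in ΔG and 8.18 to 8.58 in null, a log2 change of −0.77 in null minus WT (SE 0.12, limma adjusted p = 0.00115). Probes outside the missing part would still report RNA, so Rb1 does not fully check the null label. Xist, the RNA that silences an X chromosome in female cells, was 4.24 to 4.45 on WT replicates 1 and 2 and all ΔG arrays, where the mean of 3 Y-linked genes was 8.40 to 8.90. On WT replicate 3 and all null arrays Xist was 11.42 to 11.98 and the Y-linked mean 3.96 to 4.37. WT replicate 3 was therefore not from the same embryo as WT replicates 1 and 2. Between ΔG and null, this sex pattern cannot be told apart from genotype. No detection calls were used, so it is not known which dim members were above background, and precision is limited throughout by how few arrays there are.

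Single WT arrays and single ΔG arrays spanned more in the markers' mean than the genotype means differed. These are unlike measures, since a mean of 3 arrays varies less than single arrays. The markers' mean spanned 0.86 in WT, 1.14 in ΔG and 0.28 in null. Genotype means differed by 0.54 (ΔG minus null), 0.39 (ΔG minus WT) and −0.15 (null minus WT). The mean over the 37 genes was 6.15, 5.79 and 5.29 on WT replicates 1, 2 and 3. It was 6.67, 6.20 and 5.53 on ΔG replicates 1, 2 and 3, and 5.72, 5.44 and 5.64 on null replicates 1, 2 and 3. ΔG replicate 1 was the highest of the 9 arrays and WT replicate 3 the lowest, and each genotype overlapped the other ones. As group values these are 5.74 ± 0.43 for WT, 6.13 ± 0.58 for ΔG and 5.60 ± 0.14 for null (SD, n = 3 each). Differences between the genotype groups made up 30.2% of the variance of the members' mean over the 9 arrays. Over single members this share had a median of 29.8%, from 1.17% to 53.2%, beside a median of 38.2% over all genes. The share also holds the sex pattern, and it is not corrected for the few arrays per group.

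Most members had the same highest and lowest array in WT and in ΔG, some by a very small margin. The smallest difference from replicate 3 to replicate 1 was 0.0094 in WT and 0.0026 in ΔG. WT replicate 1 had the highest WT value for all 37 members, whereas it was the highest WT array for 27.8% of all genes. WT replicate 3 had the lowest for 35, and for 39.3% of all genes. In ΔG, replicate 1 was highest for 32 members (25.5% of all genes) and replicate 3 lowest for 36 (38.7% of all genes). The null arrays lay closer together, with replicate 1 highest for 19 members (30.1% of all genes) and replicate 2 lowest for 25 (27.0% of all genes). Over all 9 arrays, ΔG replicate 1 held the highest value of 31 members, and WT replicate 3, null replicate 2 and ΔG replicate 3 the lowest value of 21, 9 and 5. WT replicate 3 lay below ΔG replicate 3 in 30 members and below null replicates 1, 2 and 3 in 33, 28 and 34.

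**Figure D1:**
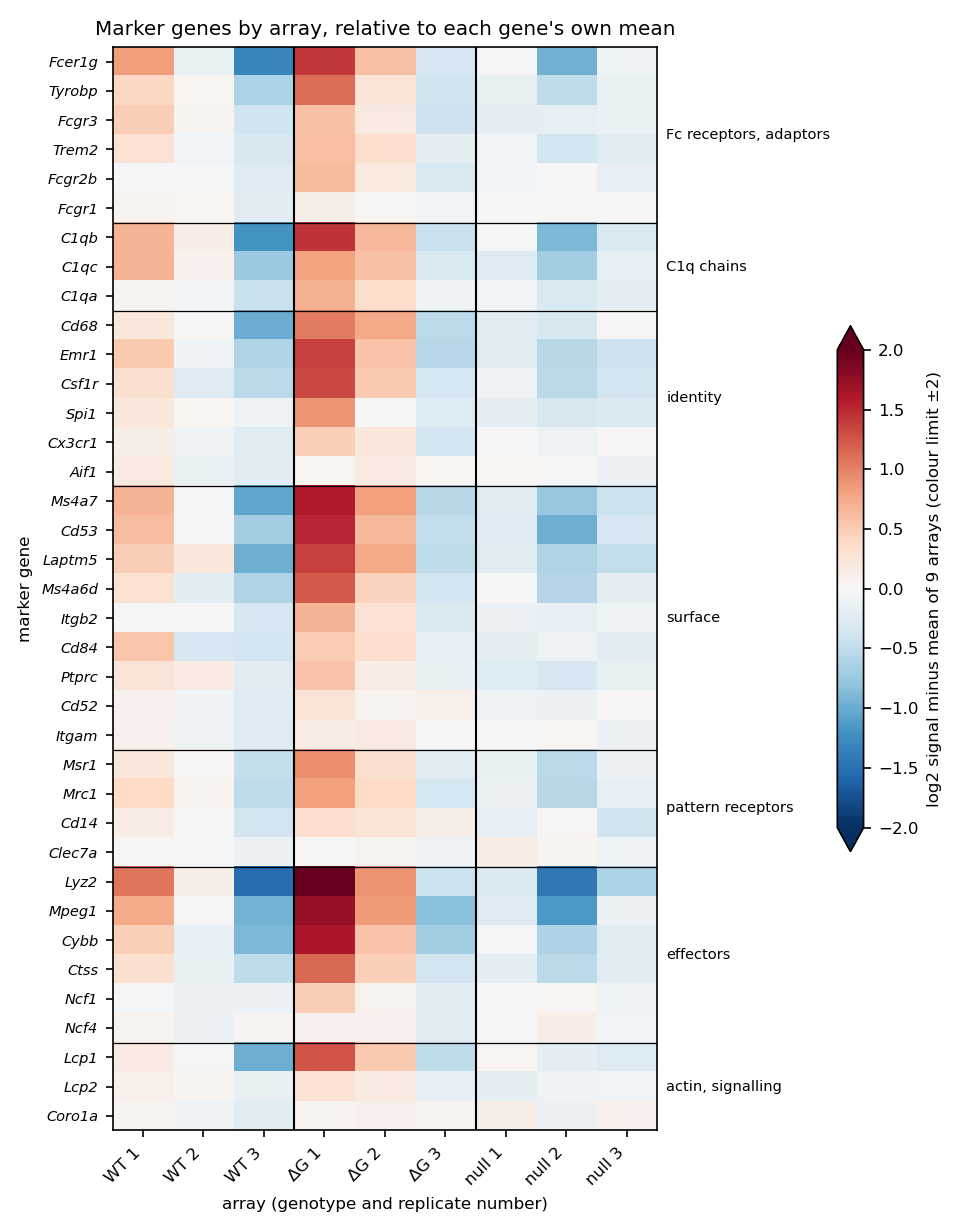
Signal of each of the 37 marker genes on each array as a colour, given as log2 signal minus the gene's own mean over the 9 arrays, with genes in rows grouped by role and arrays in columns grouped by genotype. ΔG replicate 1 is the reddest column and holds the highest value of 31 members, and WT replicate 3 is blue in nearly every row and holds the lowest value of 21.

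The spread was wide for these genes. Between their highest and lowest array the members ranged over 0.26 to 3.74 log2 units, with a median of 1.19, beside a median of 0.38 over all genes. A range of at least 0.5 was seen in 30 members, and in 28.9% of all genes. It was at least 1 in 21 members, and in 6.28% of all genes, and at least 2 in 10 members, and in 0.512% of all genes. Within genotypes the median SD was 0.386 over members and 0.107 over all genes, and of the 50 genes with the largest SD within genotypes 14 were members. From WT replicate 3 to WT replicate 1 the difference was at least 1 in 13 members, and in 0.231% of all genes, and reached 2.59 (6.02-fold) in Lyz2. From ΔG replicate 3 to ΔG replicate 1 it was at least 1 in 19 members, and in 0.306% of all genes, and reached 2.63 (6.21-fold), again in Lyz2.

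Among the proteins that phagocytes release or load into their vesicles, Lyz2, the lysozyme of macrophages, had the widest range of all members. Its signal was 8.84, 7.89 and 6.25 on WT replicates 1, 2 and 3, 9.99, 8.67 and 7.35 on ΔG replicates 1, 2 and 3, and 7.48, 6.34 and 7.14 on null replicates 1, 2 and 3. Values for other members are given in that same order of replicates. WT replicate 3 and null replicate 2 were the lowest, and the WT values spanned all the null values. Lyz2 has a near copy, Lyz1, and cross-hybridisation between them is uncertain. Lyz1, looked up after the values of Lyz2 were seen, ran from 5.70 to 6.80 over the arrays. With values set against each genotype's mean, the correlation of Lyz1 with the members' mean was 0.89. Mpeg1, a pore-forming protein of phagosomes, had a range of 2.89, Cybb, the catalytic subunit of the phagocyte NADPH oxidase, 2.51, and Ctss, the lysosomal protease cathepsin S, 1.67. For these 3 genes ΔG replicate 1 was the highest array. The oxidase subunits Ncf1 and Ncf4 ranged over 0.69 and 0.34, and Ncf4 was highest on null replicate 2.

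Fcer1g encodes the signalling chain shared by several Fc receptors, which bind the tails of antibodies. It read 8.07, 7.10 and 5.90 in WT, 8.64, 7.82 and 6.89 in ΔG, and 7.21, 6.26 and 7.16 in null. The 3 genotypes overlapped, and WT replicate 3 lay below all null arrays. Tyrobp, the adaptor also called DAP12, had a range of 1.75. Trem2, a lipid-sensing receptor that signals through Tyrobp, was at 7.04, 6.69 and 6.42 in WT, 7.35, 7.08 and 6.57 in ΔG, and 6.70, 6.38 and 6.50 in null. Its ΔG replicate 3 lay within the range of both other groups. Of the Fc receptors themselves, the activating Fcgr3 and the inhibitory Fcgr2b ranged over 0.99 and 0.93, and the high-affinity receptor Fcgr1 over 0.33.

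The 3 chains of C1q, the first component of the classical complement pathway and a typical macrophage product, shared the pattern. C1qb read 7.67, 7.12 and 5.79 in WT, 8.44, 7.64 and 6.55 in ΔG, and 6.95, 6.09 and 6.68 in null. C1qc read 6.68, 6.09 and 5.25 in WT, 6.81, 6.59 and 5.70 in ΔG, and 5.74, 5.30 and 5.84 in null. C1qa spanned less, at 5.93, 5.82 and 5.43 in WT, 6.59, 6.23 and 5.81 in ΔG, and 5.83, 5.58 and 5.70 in null. For each chain the lowest of the 9 arrays was WT replicate 3 and the highest was ΔG replicate 1, and no pair of genotypes was separate.

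Genes that define the lineage followed. Csf1r, the receptor of the growth factors CSF1 and IL-34, read 6.39, 5.81 and 5.54 in WT, 7.39, 6.59 and 5.72 in ΔG, and 6.0, 5.53 and 5.69 in null. ΔG replicates 1 and 2 were above all other arrays, while ΔG replicate 3 was below 2 WT arrays. Cd68, a glycoprotein of late endosomes, read 8.01, 7.81 and 6.80 in WT, 8.81, 8.55 and 7.27 in ΔG, and 7.57, 7.46 and 7.81 in null. Here WT replicate 3 and ΔG replicate 3 were the lowest arrays, both below all null arrays.

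Spi1 read 5.67, 5.51 and 5.38 in WT, 6.35, 5.48 and 5.20 in ΔG, and 5.28, 5.15 and 5.18 in null. It was the only member whose null values all lay below all WT values, a separation seen in 18.9% of all genes. Adgre1, which encodes an adhesion receptor used to mark mature macrophages, had a range of 1.97, the fractalkine receptor Cx3cr1 0.86 and the actin-binding protein Aif1, also known as Iba1, 0.40. Aif1 was highest on WT replicate 1, as was the adhesion receptor Cd84, a surface gene with a range of 0.94.

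Among surface proteins common to many leukocytes, Ms4a7, a 4-pass membrane protein of macrophages, read 5.94, 5.22 and 4.23 in WT, 6.85, 6.08 and 4.71 in ΔG, and 5.03, 4.51 and 4.83 in null. The tetraspanin Cd53 read 6.29, 5.65 and 4.98 in WT, 7.20, 6.32 and 5.18 in ΔG, and 5.41, 4.69 and 5.33 in null. In both, ΔG replicates 1 and 2 exceeded every null array and ΔG replicate 3 did not. Ptprc, the phosphatase CD45 found on all nucleated blood cells, read 5.84, 5.74 and 5.36 in WT, 6.16, 5.73 and 5.43 in ΔG, and 5.31, 5.24 and 5.44 in null. WT replicate 3 and ΔG replicate 3 were both below null replicate 3. The lysosomal protein Laptm5 ranged over 2.34, Ms4a6d over 1.84 and the integrin chain Itgb2 over 1.01.

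Further surface genes were nearly level. Itgam, the CD11b chain that pairs with Itgb2, read 5.34, 5.16 and 5.0 in WT, 5.41, 5.44 and 5.26 in ΔG, and 5.24, 5.30 and 5.14 in null. The small glycoprotein gene Cd52 read 5.14, 4.99 and 4.80 in WT, 5.31, 5.12 and 5.16 in ΔG, and 4.99, 4.94 and 5.06 in null. Cd52 was above all null values on every ΔG array but overlapped WT.

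Pattern receptors recognise microbial or altered self molecules. The scavenger receptor Msr1 had the widest range of the 4, at 5.56, 5.35 and 4.86 in WT, 6.26, 5.66 and 5.10 in ΔG, and 5.19, 4.79 and 5.22 in null. Cd14, a co-receptor for bacterial lipopolysaccharide, read 5.81, 5.67 and 5.30 in WT, 6.0, 5.94 and 5.78 in ΔG, and 5.49, 5.69 and 5.26 in null. Every ΔG array exceeded every null array for Cd14, while WT replicate 1 reached into the ΔG range. The mannose receptor Mrc1 ranged over 1.37. Clec7a, the beta-glucan receptor Dectin-1, read 4.87, 4.82 and 4.73 in WT, 4.88, 4.92 and 4.74 in ΔG, and 5.0, 4.91 and 4.77 in null. Clec7a had the smallest range of all members, 0.26, and null replicate 1 was its highest array.

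Of the actin and signalling genes, Lcp1, the actin bundler L-plastin, read 6.11, 5.91 and 4.96 in WT, 7.19, 6.47 and 5.43 in ΔG, and 5.98, 5.74 and 5.67 in null. WT replicate 3 and ΔG replicate 3 lay below the narrow null range. Coro1a, the leukocyte coronin, read 5.90, 5.76 and 5.61 in WT, 5.90, 5.94 and 5.90 in ΔG, and 5.96, 5.74 and 5.94 in null. The adaptor Lcp2, also called SLP-76, ranged over 0.47. In all, 7 members spanned less than 0.5 over the arrays, namely Fcgr1, Aif1, Itgam, Clec7a, Ncf4, Coro1a and Lcp2.

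**Figure D2:**
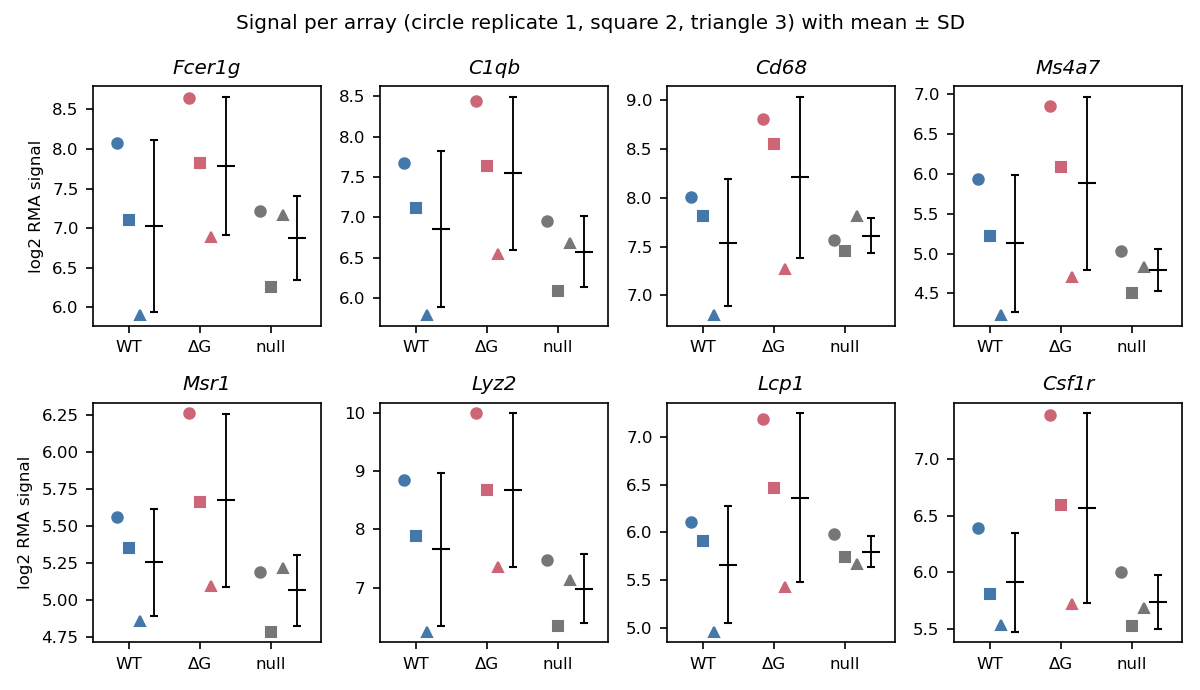
Log2 RMA signal per array for 8 marker genes, the member with the widest range in each role and Csf1r, by genotype, with the mean and SD of 3 arrays as a bar beside the points. In every panel replicate 1 (circle) is the highest WT and the highest ΔG array and replicate 3 (triangle) the lowest of both, as with 8.84 and 6.25 for Lyz2 in WT.

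The members moved together within genotypes. After each value was set against its genotype's mean, the median Pearson correlation of a member with the mean of the other members was 0.96 over the 9 arrays, and 24 of 37 members reached 0.9. All of these points come from the same 9 RNA samples, so this is a description. Ms4a7 had the highest correlation, 0.998, and Ncf4 the lowest, 0.42. Among the 19901 other genes, 99 (0.497%) reached a correlation of 0.9 with the members' mean, and 34 of those spanned at least 1 log2 unit. A correlation of −0.9 or below was seen in 62 other genes, 5 of which spanned as much. For naming genes, predicted and clone-named genes, small RNA genes and olfactory and vomeronasal receptor genes were left out. The 15 most alike of the genes kept were Cd33, Gria1, Lmo2, Cd180, Lilr4b, Clec12a, Prcd, Ccl3, Frmd5, Stab1, Srgn, C3ar1, Tlr13, Tlr7 and Cd300c2, with correlations of 0.973 to 0.997. Several are known from myeloid cells, such as the sialic acid receptor Cd33 (range 1.41), the chemokine Ccl3 (2.39), the complement receptor C3ar1 (3.19) and the RNA-sensing receptor Tlr13 (2.05). Gria1 (range 1.21) encodes a glutamate receptor subunit best known from neurons. The 5 least alike of the genes kept were Gca, Ints9, Chodl, Atp6v1b2 and Trim75, with correlations of −0.950 to −0.969. Of these Chodl, which encodes the membrane protein chondrolectin, spanned 1.84 and Gca, which encodes the calcium-binding protein grancalcin, 1.20.

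The first comparison asked whether ΔG cultures differed from WT in these markers. Their signal was on average higher in ΔG, but no member passed the threshold. In limma, 0 of 37 members were called at an adjusted p of 0.05, where 0.813% of all genes were, and 3 members had an unadjusted p under 0.05, all higher in ΔG (8.11%, against 11.8% of all genes in either direction and 5.30% higher). The log2 change was positive in 36 members, where 43.3% of all genes were positive, and its median was 0.34, against −0.02 over all genes. The lowest p was that of C1qa, 0.49 higher in ΔG (SE 0.18, 95% interval 0.10 to 0.88, limma adjusted p = 0.296). Cd14 had a change of 0.31 (95% interval 0.01 to 0.62) and Cd52 of 0.22 (0.02 to 0.43), with limma adjusted p-values of 0.403 and 0.385. Csf1r, Lcp1 and Itgam had changes of 0.65 (−0.09 to 1.40), 0.70 (−0.13 to 1.54) and 0.20 (−0.01 to 0.41). Lyz2 had the largest difference, 1.01, with an interval of −0.47 to 2.49. These intervals hold both no difference and differences of over 2-fold for Csf1r, Lcp1 and Lyz2, so a missed threshold does not show that ΔG and WT were alike. Coro1a alone had every ΔG value above every WT value, which 7.05% of all genes had. The margin was small, since WT replicate 1 and ΔG replicates 1 and 3 all rounded to 5.90.

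Single arrays set the size of this difference. The median over members was 0.129 without ΔG replicate 1 and 0.614 without ΔG replicate 3, and it was 0.566 without WT replicate 1 and 0.168 without WT replicate 3. The last value is also that for arrays of one sex pattern, since WT replicate 3 is the WT array with high Xist, and there 32 members had a positive change. With the Y-linked mean as a covariate the median was 0.131. With no array of either group left out, arrays of the same number differed in the members' mean by 0.53, 0.41 and 0.24 (ΔG minus WT, replicates 1, 2 and 3), but the numbers are not known to pair the cultures.

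The second comparison set null cultures against WT, sharing the WT arrays with the first. Here the members were on average slightly lower and none passed. Limma called 0 of 37 at an adjusted p of 0.05, where 18.4% of all genes were called, and 0 had an unadjusted p under 0.05, where 30.0% of all genes did. The change was negative in 25 members and positive in 12 (67.6% and 32.4%, against 52.5% and 47.5% of all genes), with a median of −0.13 against −0.01 over all genes. The lowest p was that of Ptprc, with a change of −0.32 (SE 0.17, 95% interval −0.69 to 0.05, limma adjusted p = 0.242). Spi1 had a change of −0.32 (−0.80 to 0.17), Cd53 −0.50 (−1.47 to 0.47) and C1qc −0.38 (−1.13 to 0.36). Coro1a and Clec7a lay on the other side, at 0.12 (−0.07 to 0.32) and 0.08 (−0.10 to 0.27). Only WT and null arrays were then used, which gives the spread of those 2 groups alone. There Spi1 passed (limma adjusted p = 0.0359, log2 change −0.32), where 17.9% of all genes did.

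WT replicate 3, the array that shares the sex pattern of the null arrays, changed the direction. Against it alone the members were higher in null, with a median of 0.213 and a positive change in 34 of 37. The members' mean on null replicates 1, 2 and 3 was 0.42, 0.15 and 0.35 above that array. With the Y-linked mean as a covariate the median was 0.304 and 35 members were positive. Left out in turn, WT replicate 3 gave a median of −0.338, WT replicate 1 one of 0.0614, null replicate 1 one of −0.204 and null replicate 2 one of −0.0562. The part of the sex pattern in these values cannot be told apart from that of a single array.

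The third comparison set both mutant groups against each other and reuses arrays of the first and second. Members were on average higher in ΔG than in null, and none passed with all arrays and a mean per genotype. In that limma model 0 of 37 were called, where 8.71% of all genes were, while 11 had an unadjusted p under 0.05 (29.7%, against 23.1% of all genes in either direction and 11.7% higher), all of them higher in ΔG. The change was positive in 35 members, where 47.9% of all genes were, and its median was 0.51 against −0.01 over all genes. Cd14 had the lowest p, 0.43 higher in ΔG (SE 0.14, 95% interval 0.12 to 0.73, limma adjusted p = 0.0818). C1qa was 0.51 higher (0.11 to 0.90), Ptprc 0.44 (0.07 to 0.81) and Trem2 0.47 (0.05 to 0.89). Larger and less certain were Lyz2, 1.68 higher (0.20 to 3.16), and Cd53, 1.10 higher (0.13 to 2.06). The 5 genes after Cd14 by p had limma adjusted p-values of 0.110 to 0.164. Cd14 and Cd52 were the members without overlap between ΔG and null, which 13.8% of all genes had in this direction.

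Single arrays and the choice of arrays changed the calls in this comparison. Without ΔG replicate 3 limma called 22 of 37 members, all higher in ΔG by 0.34 to 2.34, where 12.1% of all genes were called. Among them were Ctss (1.12), Csf1r (1.25), Adgre1 (1.36), Mpeg1 (1.81) and Lyz2 (2.34), with limma adjusted p-values of 0.0105 to 0.0336. Cd14 was not among the 22 (adjusted p = 0.0628). It was the only member called without WT replicate 3 (limma adjusted p = 0.037), where 9.09% of all genes were called. The same held with only the ΔG and null arrays in the model (limma adjusted p = 0.0498), where 8.27% were. Without ΔG replicate 1 the median over members was 0.256 and limma called 0, where 3.82% of all genes were called. The sex pattern coincides with genotype here. With the Y-linked mean as a covariate, a term that only the WT arrays separate from genotype, the median was −0.142 and 33 members were negative.

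**Figure D3:**
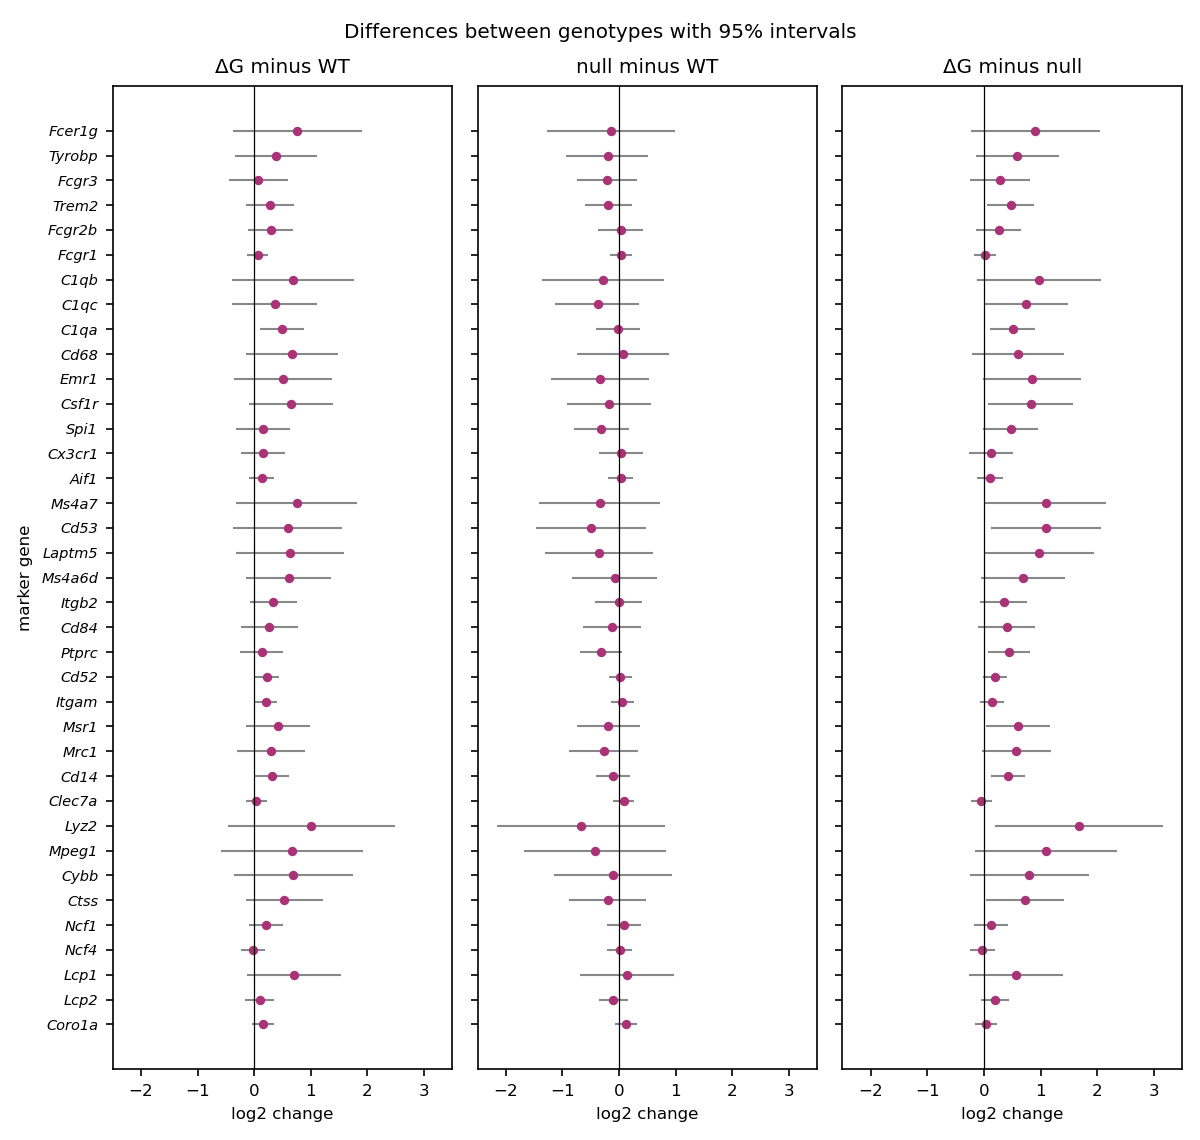
Log2 difference between genotypes for each of the 37 marker genes, in a panel per comparison, with the 95% interval of the limma model as a line and 0 as a vertical line. Points lie right of 0 for 36 members in ΔG minus WT and 35 in ΔG minus null and left of 0 for 25 in null minus WT, and most lines cross 0.

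By role, the median change in ΔG minus WT was 0.28 for Fc receptors and adaptors, 0.49 for C1q chains, 0.33 for identity genes, 0.34 for surface genes, 0.30 for pattern receptors, 0.60 for effectors and 0.16 for actin and signalling genes. In null minus WT 6 of the 7 role medians were between −0.28 and −0.07 and that of the actin and signalling genes was 0.12. In ΔG minus null all were positive, from 0.20 for actin and signalling genes to 0.76 for effectors.

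Other genes of the myeloid programme were looked at for comparison. Of 59 further myeloid genes 53 were measured, and their mean ranged over 0.49 between arrays, from 5.78 on WT replicate 3 to 6.26 on ΔG replicate 1, the same lowest and highest array as for the members. Of these 53 genes, 12 reached a correlation of 0.9 with the members' mean within genotypes, and the list's median was 0.64. In ΔG minus WT limma called 0 of them and 8 had an unadjusted p under 0.05 (15.1%, against 11.8% of all genes). In null minus WT 3 rose and 3 fell, or 11.3% of the list, below the 18.4% of all genes called there. In ΔG minus null 5 were higher and 1 lower, again 11.3%, against 8.71% of all genes. Those that fell were Arhgdib, Gpnmb, a lysosomal glycoprotein, and Cd40, a co-stimulatory receptor, by 0.69, 0.74 and 0.70 on the log2 scale. Those that rose were the kinase Syk (0.70) and the transcription factors Runx1 (0.44) and Cebpa (0.29). In ΔG minus null Inpp5d, a lipid phosphatase (0.57), Plek, a kinase C substrate of blood cells (0.61), Cd40, Gpnmb and Arhgdib were higher in ΔG and Cebpa lower. Among all these called genes only Plek reached 0.9 in correlation with the members (0.94); Runx1, Cebpa and Plek were looked up after the calls were seen.

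Of 11 growth factors and chemokines that act on myeloid cells, limma called 0 in ΔG minus WT, where 0.813% of all genes were called. There 2 had an unadjusted p under 0.05 (18.2%, against 11.8% of all genes). In null minus WT 36.4% of the list was called, where 18.4% of all genes were. Of the called genes 3 fell. Il34, the other ligand of the receptor encoded by Csf1r, fell by 0.44 (limma adjusted p = 0.000891). The monocyte attractants Ccl2 and Ccl7 fell by 1.08 and 0.83 (limma adjusted p = 0.00272 and 0.00615). Flt3l, a growth factor of dendritic cell precursors, rose by 0.27 (adjusted p = 0.0273), a gene looked up after the calls were seen. In ΔG minus null Il34 alone was called, 0.38 higher in ΔG (limma adjusted p = 0.00489). That is 9.09% of the list, against 8.71% of all genes. Il34 signal was 6.25 to 6.28 in WT, 6.15 to 6.28 in ΔG and 5.82 to 5.84 in null. Its values were nearly equal within each genotype and did not follow the members, with a correlation of −0.21 within genotypes.

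The means of lists of other blood cell types varied little over the arrays. The mean of each list ranged over the arrays by 0.11 for 9 T cell genes, 0.16 for 8 B cell genes, 0.09 for 8 natural killer cell genes, 0.10 for 13 neutrophil genes, 0.14 for 9 mast cell genes and 0.13 for 9 dendritic cell and MHC class II genes. The members' mean ranged over 1.38. Limma called no gene of the T, B, natural killer, neutrophil or mast cell lists in any comparison. Of all genes, 0.813% were called in ΔG minus WT, 18.4% in null minus WT and 8.71% in ΔG minus null. Each of these lists had 0 to 1 gene per comparison at an unadjusted p under 0.05, where 11.8%, 30.0% and 23.1% of all genes were. H2-Eb1, an MHC class II chain, was the sole call among the dendritic cell genes (11.1% of that list). It was 0.39 higher in null than in WT (limma adjusted p = 0.0315). The means of 8 osteoclast, 5 erythroid, 4 megakaryocyte, 10 endothelial, 8 epithelial and 10 skeletal muscle genes ranged over 0.35, 0.14, 0.27, 0.18, 0.19 and 0.20. Single genes could vary more than these means. Ppbp of the megakaryocyte list ran from 5.93 on ΔG replicate 2 to 7.47 on null replicate 1, and was not called. In null minus WT limma called 1 gene lower in each of the osteoclast, endothelial and skeletal muscle lists. That is 12.5%, 10% and 10% of the lists, against 18.4% of all genes. The genes were the protease gene Ctsk (−1.28), Emcn (−0.81) and Des (−0.58). Ctsk and Des were also called higher in ΔG than in null (0.78 and 0.66). These calls were 12.5% and 10% of their lists, against 8.71% of all genes.

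The mean of the fibroblast markers was lower on every null array than on every WT and ΔG array. It was 11.73, 11.68 and 11.43 in WT, 11.51, 11.54 and 11.40 in ΔG, and 11.04, 10.96 and 10.95 in null. Of the 14, 10 fell in null minus WT, where 18.4% of all genes were called, and 5 were higher in ΔG than in null, where 8.71% of all genes were. Limma called 0 in ΔG minus WT, with 0 at an unadjusted p under 0.05. Their correlation with the members' mean within genotypes had a median of 0.43 and reached 0.79, in Dcn. WT replicate 3 and ΔG replicate 3, the lowest of their groups in the members' mean, were also the lowest of their groups in the fibroblast mean. Null replicate 2, the lowest null array in the members' mean, was not (10.96, against 10.95 on null replicate 3). The part of fibroblast content in the members' values was not tested.

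**Figure D4:**
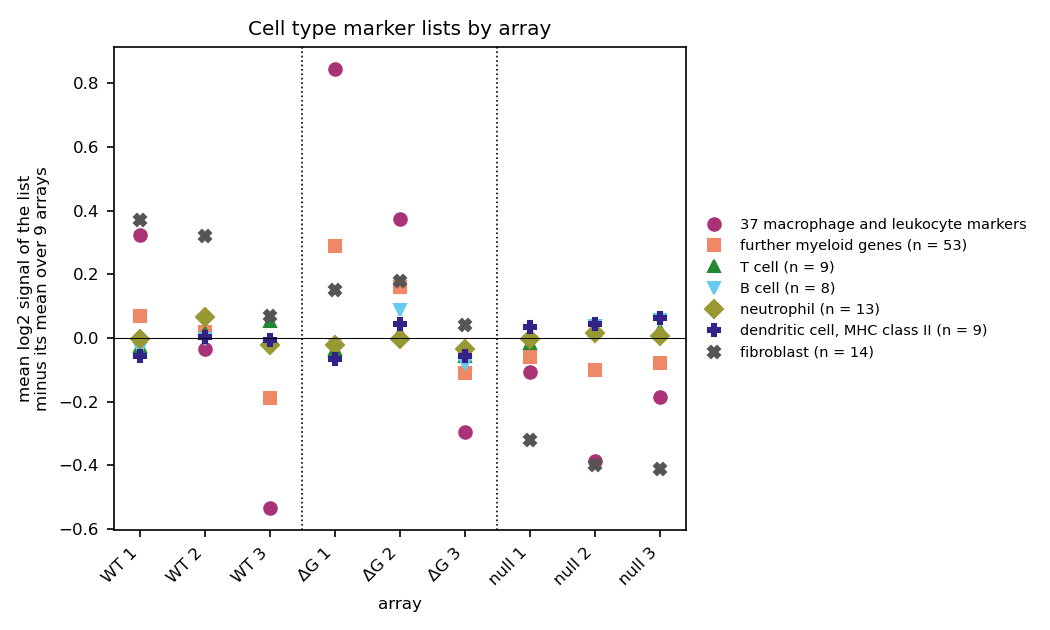
Mean log2 signal of each marker list on each array, as the difference from that list's own mean over the 9 arrays, for the 37 members and 6 other lists. The members (circles) span 1.38 from ΔG replicate 1 to WT replicate 3, the further myeloid genes 0.49 in the same order of extremes, and the T, B, neutrophil and dendritic cell lists at most 0.16.

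Calls over the remaining genes were counted again with the members' mean per array as a covariate, leaving the members out. In ΔG minus WT 105 genes passed in place of 162, and 94 were shared. In null minus WT 3482 passed in place of 3678, with 3351 shared, and in ΔG minus null 593 passed in place of 1737, with 571 shared. The covariate also takes up a residual degree of freedom and runs along with the ΔG and null difference, and these contributions to the lower counts cannot be told apart.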

How the data were processed

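RNA from 9 MEF cultures, 3 per genotype, was measured on whole-transcript gene arrays. The values are log2 RMA signals as the authors deposited them, that is, background-corrected, quantile-normalised and summarised per probe set. The series text names BRB-ArrayTools for this step, and the submitters' processing notes name RMA and affy. Their versions, the annotation and the build were not given in the sources used here. No scaling was added.

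Of 35512 probe sets, 35511 had values. The platform annotation gave 1 symbol to 21789, several to 1621 and none to 12101, and 21698 of the first kind matched RefSeq (GRCm38.p6) by gene ID. The probe set with the highest mean stood for each of 19938 genes, 999 of which had several.

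Groups came from the genotype label. One model in limma 3.58.1 (R 4.3.3) took all arrays, estimating each genotype's mean with 6 residual degrees of freedom and default eBayes moderation. P-values were adjusted by Benjamini and Hochberg's method per comparison, with calls at 0.05. The comparisons share arrays. The model was tested on simulated data. Members, gene lists, motifs and tests were chosen with earlier results of these data known, so no p-value is given for the members as a set. Array values are given for the 6 members with the lowest p per comparison and the member with the widest range in each role. From each of 16 other lists, the 3 genes with the lowest p per comparison could be named. So could the 15 genes most and 5 least like the members, leaving out predicted and clone-named genes, small RNA genes and olfactory and vomeronasal receptor genes. Alternatives changed the probe set, normalisation, filter, variance model, arrays used, replicate block and sex pattern.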

Additional observations from a re-analysis of the deposited data

How the results depend on the processing

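For all 3 comparisons, the members' calls stayed at 0 with probe sets averaged, arrays centred on their median, quantile normalisation repeated, the dimmest 25% of genes left out (29 members remained), a trended robust variance or the mean of Y-linked genes as a covariate. ΔG minus WT stayed at 0 calls under each alternative run. Only the 2 groups compared gave 1 call in null minus WT (Spi1, −0.316, limma adjusted p = 0.0359) and 1 in ΔG minus null (Cd14, limma adjusted p = 0.0498). Of all genes, 17.9% and 8.27% were called there. Leaving out 1 array at a time gave 0 to 22 calls in ΔG minus null (1 without WT replicate 3, 22 without ΔG replicate 3) and 0 in the other comparisons. The median change then ran from 0.129 to 0.614 in ΔG minus WT, −0.338 to 0.0614 in null minus WT and 0.256 to 0.708 in ΔG minus null. Arrays of the same sex pattern do not exist for ΔG minus null. The Y-linked covariate gave medians of 0.304 in null minus WT and −0.142 in ΔG minus null. It turned the sign of Ptprc, Cd53 and C1qc in null minus WT (0.0391, 0.307 and 0.494) and of Cd14, C1qa, Ptprc, Lyz2, Cd53 and Trem2 in ΔG minus null (−0.057, −0.0302, −0.0762, −0.723, −0.0824 and −0.0441). Against the WT array of the same pattern Cd53 and C1qc turned too (0.155 and 0.376). The cause was not tested. Of 315 values of named members under alternatives, 292 kept direction and side of the threshold, 12 came to pass it and 11 changed sign. With the members' mean as a covariate, 105 genes passed in ΔG minus WT and 593 in ΔG minus null. Ranking arrays by the members' median in place of their mean kept 7 of 9 ranks, and scaling each member first kept 9.

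The shared replicate numbers were checked for pairing. Deviations from the genotype means correlated at −0.084 to 0.269 between the 9 pairs of arrays with one number. Between the 18 other pairs they correlated at −0.24 to 0.14. Of 9 arrays, 6 lay closest to one of their own number (4 of 9 without the members). These ranges overlap and the labels name no litters, so the check cannot settle whether the numbers pair the cultures. The main model does not pair them. With the number as a replicate block, limma called 6 of 37 members in ΔG minus null, where 9.92% of all genes were called. These were Cd14, C1qa, Csf1r, Trem2, Lyz2 and Laptm5 (limma adjusted p = 0.0182 to 0.0455). In ΔG minus WT and null minus WT it called 0 members, where 1.06% and 18.9% of all genes were called.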
